A study of Mus musculus with 6 samples.

Results

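The genes described here are 10 that mark the unfolded protein response and the ATF4 stress response. They are *Hspa5*, *Hsp90b1*, *Dnajb9*, *Xbp1*, *Herpud1*, *Atf4*, *Asns*, *Trib3*, *Chac1* and *Ddit3*, and they were found by gene symbol among the 20405 genes of the array table, with 1 probe set each. RNA came from M0505 cells, a mouse ovarian surface epithelial line (3 arrays), and from STOSE cells, the line that arose when M0505 cells transformed spontaneously during long passage (3 arrays). Both lines are of FVB/N origin and were cultured in the same medium with serum and EGF, with no drug or stress treatment in either. Each line is a single line, so a difference between them cannot be told apart from what else changed with passage, and the labels call the arrays biological replicates without saying how the cultures were kept apart, so p-values measure the spread between these arrays.

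When unfolded protein builds up in the endoplasmic reticulum (ER), the sensors IRE1, PERK and ATF6 are released from the chaperone BiP. IRE1 splices *Xbp1* RNA, ATF6 is cut to a free transcription factor, and PERK phosphorylates the initiation factor eIF2α, which slows most translation and favours that of ATF4. Shortage of amino acids reaches ATF4 through another eIF2α kinase, GCN2, so ATF4 targets respond to both kinds of stress. The arrays read total RNA of each gene and report neither *Xbp1* splicing nor translation.

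On the scale of the arrays, log2 RMA values, all 10 genes had a mean above the background of the arrays in both lines, taken as the 95th percentile of olfactory receptor probe sets (4.74). Of 10 markers of ovarian surface epithelium 9 lay above that background in both lines, with *Lhx9* under it. So did 13704 of all 20405 genes. Other cell types were read with 6 markers each. Above the background in M0505 and STOSE cells were 5 and 5 stromal fibroblast, 3 and 4 granulosa, 4 and 3 endothelial and 1 and 1 leukocyte markers. These counts thus do not identify the tissue. Of the 10 surface epithelium markers 9 were lower in STOSE cells at a limma adjusted p under 0.05, against 24.8% of all genes. *Krt8* and *Krt19* fell most, from 11.37 to 6.82 and from 11.17 to 5.61. Of 10 proliferation genes 9 were higher in STOSE cells at the same threshold, against 31.6% of all genes. The summed log2 value of the 10 was 94.99 to 97.1 in M0505 cells and 105.0 to 105.3 in STOSE cells. The part of these differences in the results below was not tested.

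Promoters of 6 of the 10 genes held a match to a known element of these pathways, and the stretches that hold it are shown because the results are ordered by the same arms. RefSeq windows of GRCm38.p6, from 250 bases before to 50 bases after the start of the gene, were found for all 10 members and searched on both strands for 4 elements. The ER stress response element, bound by ATF6 with NF-Y, was searched as CCAAT followed after 9 bases by CCACG. Its second form was ATTGG followed after 1 base by CCACG, the core of the unfolded protein response element bound by XBP1 was TGACGTGG, and the C/EBP-ATF composite element bound by ATF4 was TGATGNAA. Capitals mark the match, on either strand, and each line gives the strand of the gene from 5′ to 3′.

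*Hspa5*, chr2:34772005-34772063, plus strand, ER stress response element: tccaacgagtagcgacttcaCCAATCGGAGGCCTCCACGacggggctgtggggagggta
*Hsp90b1*, chr10:86705513-86705676, minus strand, ER stress response element on each strand: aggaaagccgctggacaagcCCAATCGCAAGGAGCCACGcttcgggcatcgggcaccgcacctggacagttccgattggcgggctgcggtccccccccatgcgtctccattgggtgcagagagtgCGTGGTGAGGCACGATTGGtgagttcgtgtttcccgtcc
*Herpud1*, chr8:94386297-94386407, plus strand, composite element and then the second form of the ER stress response element: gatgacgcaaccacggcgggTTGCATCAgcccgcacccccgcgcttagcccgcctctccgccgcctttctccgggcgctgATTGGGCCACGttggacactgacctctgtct
*Asns*, chr6:7693210-7693252, minus strand, composite element: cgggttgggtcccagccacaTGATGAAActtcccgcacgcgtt
*Chac1*, chr2:119351029-119351076, plus strand, composite element: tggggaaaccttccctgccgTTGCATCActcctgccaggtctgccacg
*Trib3*, chr2:152344028-152344057, minus strand, composite element past the start of the gene: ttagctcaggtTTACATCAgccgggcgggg

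Counted from the start of the gene, the match began at −65 in *Hspa5*, −212 and −107 in *Hsp90b1*, −112 and −52 in *Herpud1*, −23 in *Asns*, −193 in *Chac1* and 15 in *Trib3*. No matches overlapped. Of all 32851 windows, the ER stress response element was in 0.119%, its second form in 0.0365%, the XBP1 core in 0.676% and the composite element in 3.97%. *Herpud1* was the only member with matches to elements of both kinds. The windows of *Ddit3*, *Xbp1*, *Dnajb9* and *Atf4* held none of these letters, which says nothing of sequence outside the window, and no member held the XBP1 core.

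The median size of the difference between the lines, in either direction, was 0.44 on the log2 scale over the 10 genes and 0.25 over all genes, and 17.3% of all genes moved more than *Trib3*, the member that moved most. Unlike the members, all genes include many near the background, since 13704 of the 20405 had a mean above it in both lines. At an adjusted p under 0.05 from limma, 4 members were higher in STOSE cells (*Herpud1*, *Atf4*, *Asns* and *Trib3*), against 31.6% of all genes, and 2 were lower (*Dnajb9* and *Hsp90b1*), against 24.8%. These shares are near those of the whole array. A lower value in bulk RNA cannot tell fewer expressing cells from less RNA per cell. None of the 10 also reached a 2-fold change, which 4.9% of all genes did upward and 7.59% downward, and 6 had an unadjusted limma p under 0.05, against 61.2% of all genes. The 3 STOSE values lay wholly above the M0505 values in 4 members (37.6% of all genes) and wholly below them in 2 (27% of all genes). Of the 5 genes of the ER arm 1 rose and 2 fell, whereas of *Atf4* and its 4 targets 3 rose and none fell. Without the replicate 1 arrays, which stood apart for the ATF4 arm as described below, 5 members were higher and 2 lower. That fit was chosen after the data were seen, and the share of all genes past the threshold in it is not given.

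**Figure D1:**
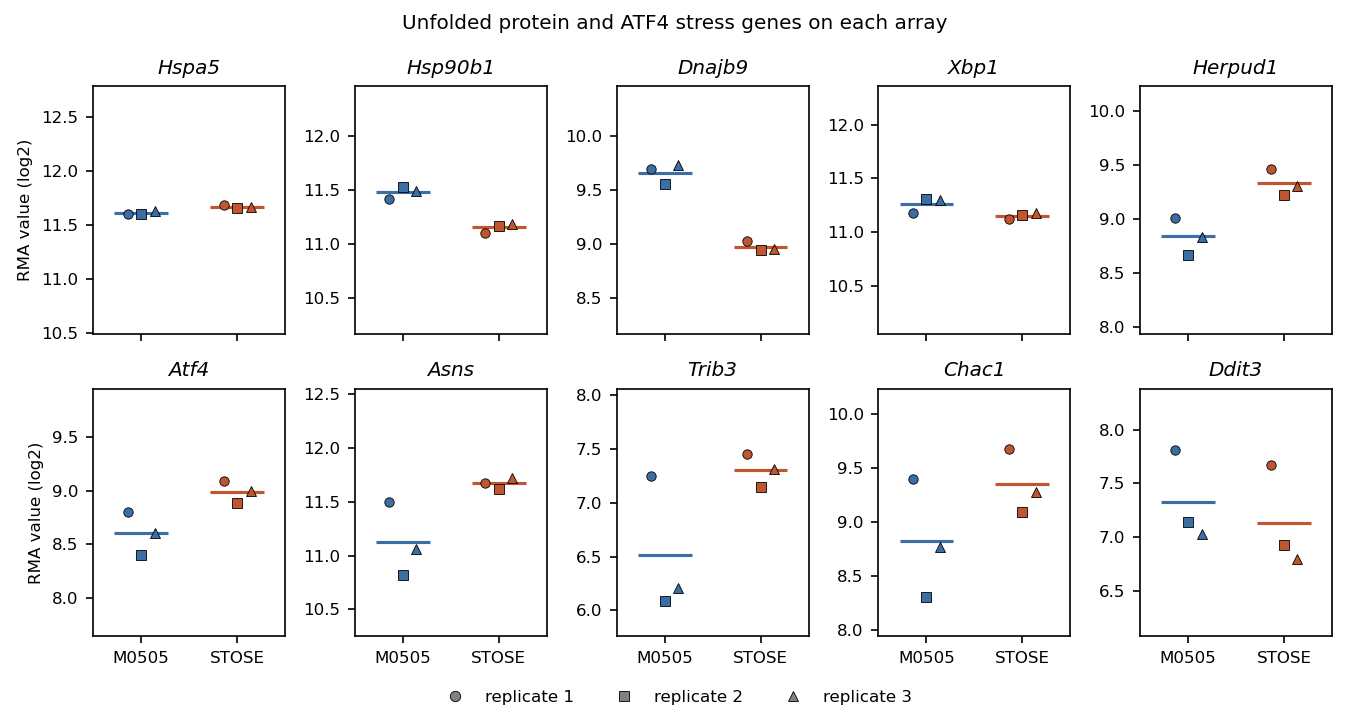
Log2 RMA value of each member on each array, with M0505 in blue, STOSE in orange, the 3 replicates as symbols and the line mean as a bar; every panel spans the same range. In the upper row (ER arm) *Dnajb9* and *Hsp90b1* are lower and *Herpud1* is higher in STOSE cells, and in the lower row (ATF4 arm) replicate 1, the circle, lies above the other arrays of its line for all but *Asns* in STOSE cells.

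The chaperones of the ER are given first, and in what follows the error after a difference between the lines is its standard error. *Hspa5* encodes BiP, the main chaperone of the ER and the usual readout of the unfolded protein response. Its values were 11.61, 11.61 and 11.63 in M0505 cells and 11.69, 11.66 and 11.66 in STOSE cells. The lines did not overlap, but the gap was small, 0.05 ± 0.05 on the log2 scale (95% interval −0.07 to 0.17, limma adjusted p = 0.423). The replicates of *Hspa5* were tight, with an SD of 0.015 in each line (n = 3), and by the methods' t-test, which uses that spread alone, it passed the threshold (adjusted p = 0.0301).

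*Hsp90b1* encodes GRP94, the HSP90 of the ER. It read 11.42, 11.53 and 11.49 in M0505 cells and 11.10, 11.17 and 11.19 in STOSE cells, with every STOSE array lower. The fall was 1.25-fold (−0.33 ± 0.06 on the log2 scale, limma adjusted p = 0.00174). When each array was centred on its median, which added 0.20 to every difference, *Hsp90b1* was at −0.13 and not past the threshold (adjusted p = 0.0911), and *Hspa5* was at 0.25 and past it (adjusted p = 0.00292). In that fit 12738 of all 20405 genes were past the threshold as higher. The median of all genes was 0.28, above the value of *Hspa5*.

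*Dnajb9* encodes ERdj4, a J-domain partner of BiP that is induced through XBP1 and holds IRE1 in check. Its values were 9.69, 9.56 and 9.73 in M0505 cells against 9.02, 8.94 and 8.95 in STOSE cells. All 3 STOSE arrays lay well under all 3 M0505 arrays, and this 1.61-fold fall had the smallest p of the 10 members (−0.69 ± 0.07 on the log2 scale, limma adjusted p = 3.99e-05). It held in each of the 16 other fits that gave an adjusted p.

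*Xbp1*, the transcription factor that IRE1 activates, read 11.18, 11.31 and 11.30 in M0505 cells and 11.12, 11.16 and 11.18 in STOSE cells. The highest STOSE array just met the lowest M0505 array. The difference of −0.11 ± 0.06 was not past the threshold (95% interval −0.25 to 0.03, limma adjusted p = 0.161), and it was 0.09 after centring of the arrays on their medians.

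*Herpud1* encodes a membrane protein that organizes ER-associated degradation. It read 9.01, 8.67 and 8.83 in M0505 cells and 9.46, 9.22 and 9.30 in STOSE cells. The lowest STOSE array lay above the highest M0505 array, and the rise was 1.41-fold (0.49 ± 0.10 on the log2 scale, limma adjusted p = 0.0031). This too held in all 16 other fits. *Herpud1* was thus the only member of the ER arm to rise.

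*Atf4*, the transcription factor at the centre of the other arm, had values of 8.80, 8.40 and 8.60 in M0505 cells and of 9.09, 8.88 and 8.99 in STOSE cells. The lines did not overlap, and its RNA was 1.31-fold higher in STOSE cells (0.39 ± 0.11 on the log2 scale, limma adjusted p = 0.0139).

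*Asns* encodes asparagine synthetase, a classical target of ATF4 under amino acid shortage. Its values were 11.50, 10.82 and 11.07 in M0505 cells, spread over a much wider range than the 11.68, 11.62 and 11.72 of STOSE cells. *Asns* rose 1.46-fold (0.54 ± 0.15 on the log2 scale, limma adjusted p = 0.0151). Without M0505 replicate 3 the adjusted p was 0.0519.

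*Trib3* encodes a pseudokinase that is induced by ATF4 and CHOP and dampens their action. It read 7.25, 6.08 and 6.20 in M0505 cells and 7.46, 7.15 and 7.32 in STOSE cells. M0505 replicate 1 lay among the STOSE arrays, while the other M0505 arrays lay far below. The M0505 mean was 6.51 ± 0.64 and the STOSE mean 7.31 ± 0.16 (SD over 3 arrays), a rise of 1.74-fold (0.80 ± 0.27 on the log2 scale, limma adjusted p = 0.0356). That it passed the threshold rested on every array but 1. Without M0505 replicate 1 the log2 fold change was 1.16 (adjusted p = 6.51e-05), the only single array whose removal took a member past 2-fold, and without any 1 of the other arrays the adjusted p lay above 0.05, the highest being 0.125 without M0505 replicate 2. By the methods' t-test the adjusted p was 0.159 for *Trib3*, 0.0764 for *Atf4* and 0.0947 for *Asns*, none of them past the threshold.

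*Chac1* encodes an enzyme that breaks down glutathione and is a target of ATF4. Its values were 9.40, 8.31 and 8.77 in M0505 cells and 9.68, 9.09 and 9.27 in STOSE cells. The lines overlapped through M0505 replicate 1, and the difference of 0.52 ± 0.26 was not past the threshold (95% interval −0.07 to 1.12, limma adjusted p = 0.119). Single arrays moved it widely, from 0.27 without M0505 replicate 2 (adjusted p = 0.365) and 0.36 without STOSE replicate 1 (adjusted p = 0.297) to 0.81 without M0505 replicate 1 (adjusted p = 0.0106).

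*Ddit3* encodes CHOP, the factor tied to cell death under prolonged ER stress. It read 7.81, 7.14 and 7.03 in M0505 cells and 7.67, 6.93 and 6.80 in STOSE cells, so that the lines covered nearly the same range. The difference was −0.19 ± 0.26 (95% interval −0.80 to 0.41, limma adjusted p = 0.551), 0.01 after centring of the arrays and 0.05 without M0505 replicate 1. Of *Atf4* and its targets *Ddit3* was the only one whose STOSE mean was not the higher.

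**Figure D2:**
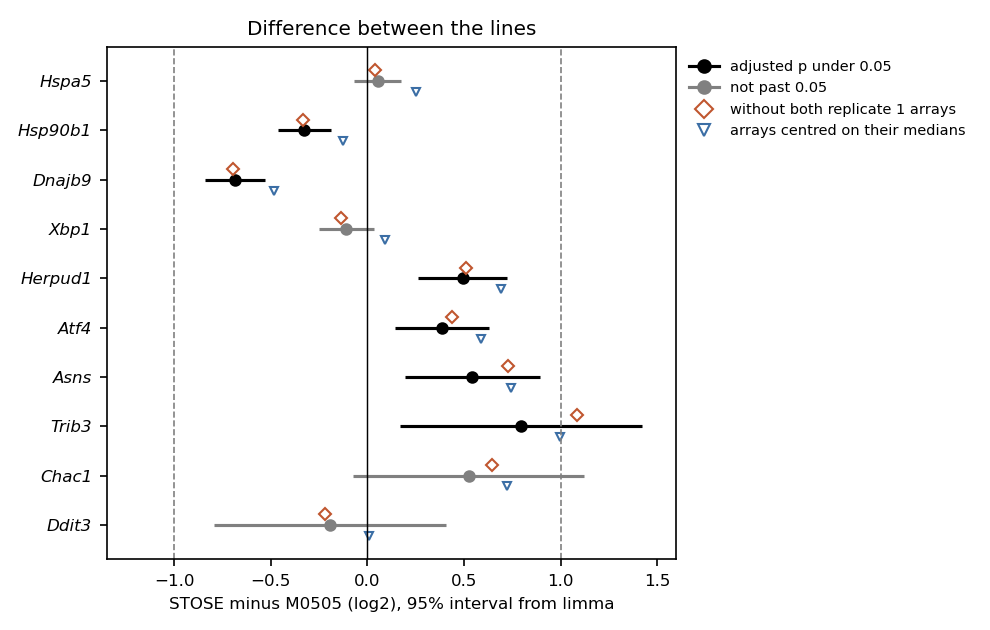
Difference between the lines for each member (STOSE minus M0505, log2) with its 95% interval from limma, in black where the adjusted p was under 0.05, with dashed lines at a 2-fold change. Open diamonds leave out both replicate 1 arrays and open triangles centre the arrays on their medians, which turns the sign of *Xbp1* and *Ddit3*.

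In the ATF4 arm replicate 1 stood apart from the other arrays. Replicate 1 was the highest array in both lines in 5 of the 10 members, against 18.3% of all genes. These were *Atf4*, *Trib3*, *Chac1* and *Ddit3* of the ATF4 arm and *Herpud1* of the ER arm. In M0505 cells replicate 1 exceeded the mean of replicates 2 and 3 by 1.10 in *Trib3*, 0.86 in *Chac1*, 0.72 in *Ddit3* and 0.56 in *Asns*, all on the log2 scale. Only 0.0539% of all genes exceeded the value of *Trib3*, and 0.691% that of *Asns*. In STOSE cells the same difference was 0.80 in *Ddit3* and 0.50 in *Chac1*, but 0.22 in *Trib3* and 0.01 in *Asns*. Thus *Ddit3* was raised alike in replicate 1 of both lines, whereas *Asns* was raised in M0505 cells alone. These genes were singled out after their values were seen, and the difference between the lines was not tested. *Hspa5* showed no such lift (−0.01 and 0.03), and *Hsp90b1* was lowest in replicate 1 in both lines (−0.09 and −0.08).

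**Figure D3:**
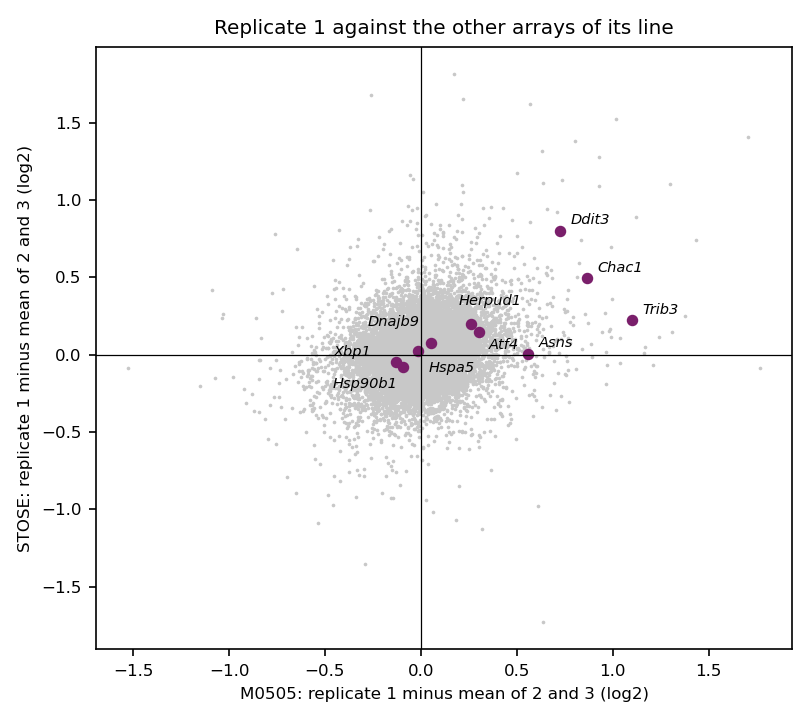
Replicate 1 minus the mean of replicates 2 and 3 (log2) in M0505 cells (horizontal) and in STOSE cells (vertical), with all genes in grey and the members in purple. *Trib3*, *Chac1* and *Ddit3* lie at the edge of the cloud, *Asns* is raised along the M0505 axis alone, and *Hspa5*, *Hsp90b1*, *Xbp1* and *Dnajb9* lie within it.

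Within a line the members did not vary strictly by arm. When each array was expressed as its deviation from the line mean, Pearson's r over the 6 arrays was 0.58 to 0.99 in the 10 pairs among *Atf4*, *Asns*, *Trib3*, *Chac1* and *Ddit3*, and −0.96 to −0.76 between each of them and *Hsp90b1* or *Xbp1*. Of the other members of the ER arm, *Herpud1* had an r of 0.83 to 0.99 with the same 5 genes, *Dnajb9* of 0.43 to 0.78 and *Hspa5* of −0.11 to 0.32. These values are descriptive, since the deviations of a line sum to zero and replicate 1 sets most of them. The summed value of the 10 proliferation genes was also highest in replicate 1 of M0505 cells, at 97.1 against 94.99 and 95.01 in the other arrays, and its part in the pattern was not tested. Over all 6 arrays, the gene with the most similar profile to *Asns* was *Shmt2* (root-mean-square difference 0.0441 on the log2 scale), that to *Xbp1* was *Pdia3* (0.0132), and that to both *Atf4* and *Herpud1* was *Rrs1* (0.0432 and 0.0372). The nearest profiles were those of *Pitpnb* for *Hspa5*, *Sema3c* for *Hsp90b1*, *Fermt3* for *Dnajb9*, *Nr1d1* for *Ddit3*, *Csn3* for *Trib3* and *9530056K15Rik* for *Chac1*, at 0.0113 to 0.176.

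Each member was also set beside the other genes of its chromosome. The median log2 fold change of the other genes on the chromosome lay between −0.05 (chromosome 10, with *Hsp90b1* and *Ddit3*) and 0.17 (chromosome 15, with *Atf4*). *Hspa5*, *Trib3* and *Chac1* share chromosome 2, where that median was 0.08, and their own values were 0.05, 0.80 and 0.52. *Dnajb9*, at −0.69, lay on chromosome 12, where the median was 0.10.

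The rest of the pathway was read from 9 lists holding 140 further genes. Of these 51 were higher and 38 lower in STOSE cells at the adjusted p, with 10 and 4 at 2-fold or more. These are 36.4% and 27.1% of the lists at the adjusted p, near the 31.6% and 24.8% of all genes, and 7.14% and 2.86% at 2-fold, beside 4.9% and 7.59%. Their median log2 fold change was 0.01, against 0.08 for all genes. The lists did not move as a block, and are given by role.

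Of 15 sensors and transcription factors 7 were lower and 3 higher, beside 24.8% lower and 31.6% higher among all genes. Their median was −0.17. RNA of the sensors *Ern1* (IRE1) and *Eif2ak3* (PERK) was lower, at −0.21 ± 0.06 (limma adjusted p = 0.0169) and −0.32 ± 0.07 (adjusted p = 0.00356), and that of *Atf6* was higher, at 0.47 ± 0.05 (adjusted p = 0.000118). The 1 gene past 2-fold was *Nfyc*, a subunit of the NF-Y complex that binds CCAAT boxes, with 8.99, 9.0 and 8.88 in M0505 cells and 10.36, 10.32 and 10.32 in STOSE cells (2.60-fold, adjusted p = 4.07e-07). The other NF-Y subunits were lower, *Nfya* at −0.61 ± 0.08 (adjusted p = 0.000306) and *Nfyb* at −0.23 ± 0.06 (adjusted p = 0.00838). Centring of the arrays adds 0.20 to every difference, which is nearly all of the falls of *Ern1* and *Nfyb* and much of that of *Eif2ak3*. It also moves the median of all genes up from 0.08 to 0.28, on values that RMA had already quantile normalized.

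Of 21 ER chaperones and folding enzymes 5 were higher and 4 lower, beside 31.6% and 24.8% of all genes, and none reached 2-fold. Their median of 0.02 was close to the value of *Hspa5*. The largest differences were those of *Pdia5*, a protein disulfide isomerase (0.83 ± 0.10, adjusted p = 0.000174), and of *Fkbp14*, a prolyl isomerase of the ER (−0.95 ± 0.08, adjusted p = 1.22e-05). After centring of the arrays *Pdia5* was at 1.03, past 2-fold.

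The genes of ER-associated degradation, which extracts misfolded protein for the proteasome, were mostly lower. Of 19, 12 fell and 1 rose (*Ube2j1*, 0.32), against 24.8% lower and 31.6% higher among all genes. The median was −0.32, the lowest of the 9 lists. Much of that median is the 0.20 that centring of the arrays adds, and the counts of this list after centring are not given. *Os9*, a lectin that delivers misfolded glycoproteins, read 9.84, 10.07 and 9.98 in M0505 cells and 8.63, 8.67 and 8.69 in STOSE cells (−1.30 ± 0.07 on the log2 scale, limma adjusted p = 1.39e-06). With the mean of its probe sets *Os9* was at −0.80. *Edem2*, a mannosidase that marks them, fell by the 2-fold of the threshold itself (−1.0 ± 0.07, adjusted p = 3.85e-06), and was under it without either M0505 replicate 2 (−0.98), M0505 replicate 3 (−0.99) or STOSE replicate 1 (−0.95) and after centring of the arrays (−0.80) or quantile normalizing them once more (−0.98). *Herpud1*, of the same machinery, moved the other way.

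Of 18 genes of translocation into the ER and signal peptide removal 8 were higher and 4 lower, beside 31.6% and 24.8% of all genes. Their median was 0.07 and none was at 2-fold. The signal peptidase subunits *Spcs3* (0.74 ± 0.08, adjusted p = 5.01e-05) and *Spcs1* (−0.68 ± 0.06, adjusted p = 2.63e-05) moved in opposite directions. Of 12 genes for eIF2α kinases, its phosphatase and eIF2B 5 were higher and 3 lower, beside the same shares of all genes. *Eif2b3*, a subunit of the exchange factor that phosphorylated eIF2α blocks, rose 1.97-fold (0.98 ± 0.09, adjusted p = 2.61e-05), and *Eif2ak4*, which encodes the amino acid sensor GCN2, fell 1.92-fold (−0.94 ± 0.07, adjusted p = 1.14e-05). Without M0505 replicate 1 *Eif2b3* was at 1.07, and without STOSE replicate 1 *Eif2ak4* was at −1.0, both past 2-fold.

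**Figure D4:**
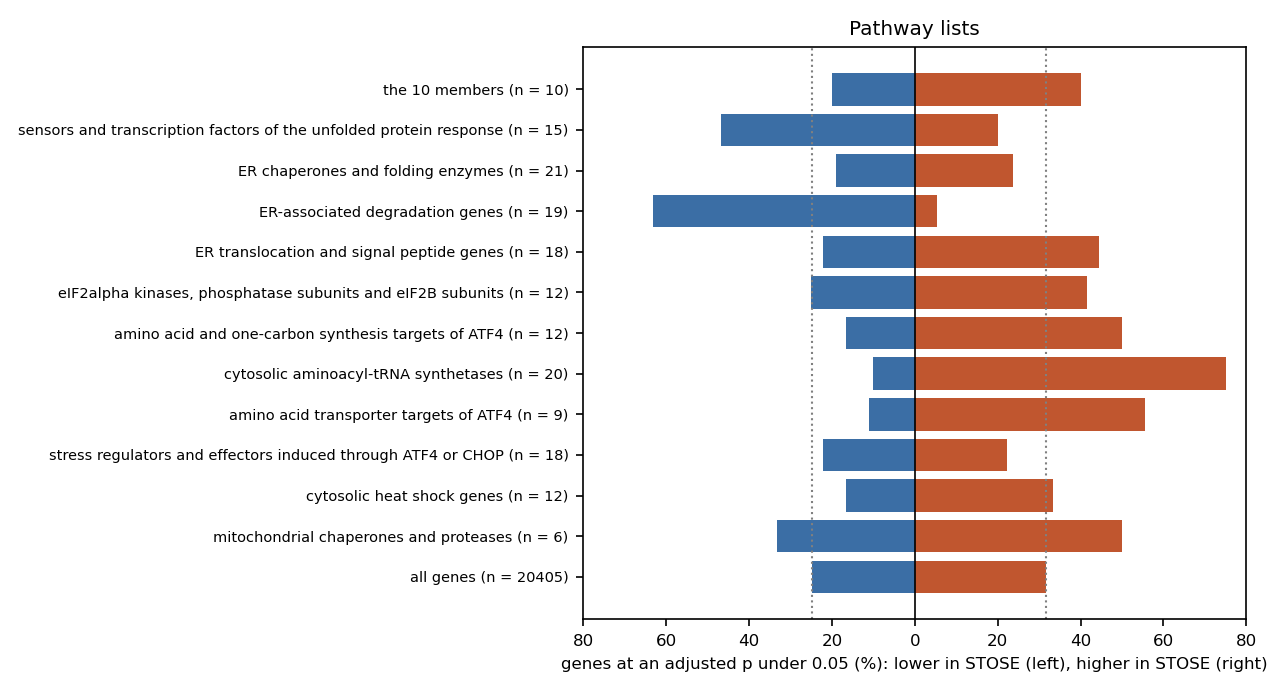
Percent of the genes of each list that were higher (orange, right) or lower (blue, left) in STOSE cells at a limma adjusted p under 0.05, with the 10 members at the top and dotted lines at the shares of all 20405 genes. The aminoacyl-tRNA synthetases reach farthest to the right (15 of 20) and the genes of ER-associated degradation farthest to the left (12 of 19).

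The 3 lists tied to amino acid supply held 41 of the 140 genes and 8 of the 10 rises of 2-fold or more. Of the 41, 26 were higher at the adjusted p. Over all genes the shares that rose were 4.9% at 2-fold and 31.6% at the adjusted p. The lists were chosen with earlier results of these data known. Of 12 ATF4 targets in amino acid and folate-linked carbon synthesis 6 were higher, 5 of them by 2-fold or more, and 2 were lower (*Cth*, −0.59, and *Got1*, −0.26), with a median of 0.37. The fall of *Got1* was little more than the 0.20 that centring of the arrays adds. *Phgdh*, the first enzyme of serine synthesis, read 8.77, 7.71 and 8.05 in M0505 cells and 9.997, 9.91 and 9.95 in STOSE cells, a rise of 3.43-fold (limma adjusted p = 0.000199). *Psat1*, the next enzyme of that route, rose 2.30-fold (adjusted p = 0.000344). The mitochondrial folate enzymes *Mthfd1l* and *Aldh1l2* rose 2.54-fold and 2.24-fold (adjusted p = 2.28e-05 and 0.00462). Without M0505 replicate 2 *Aldh1l2* was at 0.90 on the log2 scale, under 2-fold.

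Of 20 cytosolic aminoacyl-tRNA synthetases, which load amino acids onto tRNA, 15 were higher and 2 were lower (*Mars*, −0.50, and *Rars*, −0.25). This stands beside 31.6% higher and 24.8% lower among all genes, and the median was 0.46. The fall of *Rars* was also little more than the 0.20 that centring of the arrays adds. The only one past 2-fold was *Yars*, with 9.36, 9.02 and 9.11 in M0505 cells and 10.52, 10.38 and 10.44 in STOSE cells (2.44-fold, limma adjusted p = 6.82e-06). Of 9 amino acid transporters 5 were higher and 1 lower, beside the same shares of all genes. *Slc7a5*, the large neutral amino acid carrier, rose 2.23-fold (adjusted p = 0.000263). *Slc7a11*, the cystine importer, read 7.82, 5.68 and 6.44 in M0505 cells and 8.26, 8.29 and 8.40 in STOSE cells (3.19-fold, adjusted p = 0.0123), and its M0505 SD of 1.09 was larger than that of any member. By the methods' t-test neither *Slc7a11* (adjusted p = 0.0973) nor *Aldh1l2* (adjusted p = 0.0589) was past the threshold.

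Stress regulators induced through ATF4 or CHOP moved in both directions. Of 18, 4 were higher and 4 lower, with a median of −0.00357. Neither count was above the share of all genes (31.6% higher, 24.8% lower). *Atf3*, a repressor induced by ATF4, read 7.24, 7.08 and 7.03 in M0505 cells and 9.23, 8.81 and 9.01 in STOSE cells (3.74-fold, limma adjusted p = 1.88e-06). *Ddit4*, an inhibitor of mTORC1, fell 2.22-fold (adjusted p = 1.15e-06), and *Vldlr*, a lipoprotein receptor, fell at least 4.46-fold (adjusted p = 1.41e-07), a bound taken with each STOSE array set no lower than the background, since 2 of the 3 STOSE arrays and their mean of 4.64 lay under it (M0505 mean 6.90). After centring of the arrays *Ddit4* was at −0.95, under 2-fold.

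**Figure D5:**
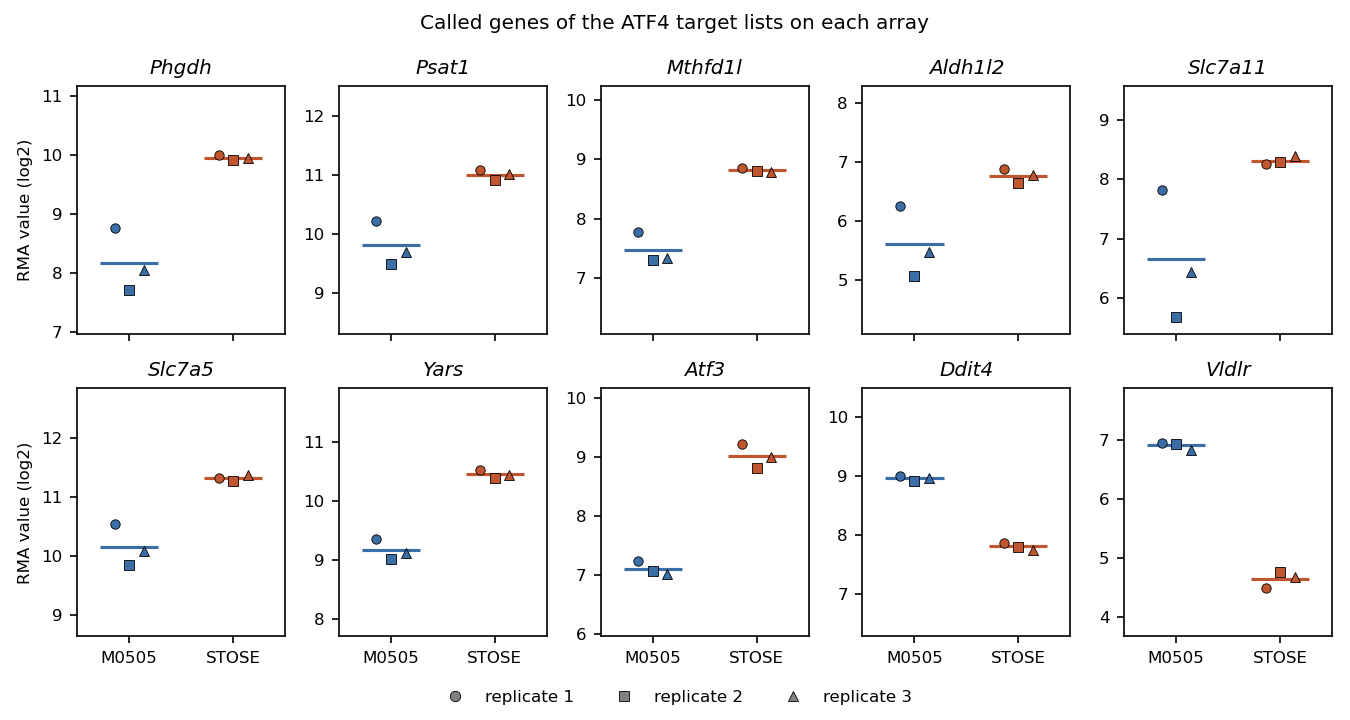
Log2 RMA value of 10 genes of the ATF4 target and tRNA synthetase lists on each array, drawn as for the members, all past 2-fold. In every gene shown that rose (*Phgdh*, *Psat1*, *Mthfd1l*, *Aldh1l2*, *Slc7a11*, *Slc7a5*, *Yars* and *Atf3*) the circle of M0505 replicate 1 is the M0505 array nearest to the STOSE mean. In *Ddit4* and *Vldlr* the M0505 arrays lie together.

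The lift of M0505 replicate 1 ran through these lists as well. It exceeded the mean of the other M0505 arrays by a median of 0.60 over the synthesis targets, 0.42 over the transporters and 0.17 over the tRNA synthetases, against −0.09 over the ER chaperones and −0.00181 over all genes. In STOSE cells the same medians were 0.02, 0.10, 0.03, −0.07 and 0.01. M0505 replicate 1 was 1.19 below the STOSE mean in *Phgdh* and M0505 replicate 2 was 2.24 below it. In *Trib3* these distances were 0.06 and 1.22, and in *Asns* 0.17 and 0.86.

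Heat shock genes of other compartments were read for comparison. Of 12 cytosolic genes 4 were higher and 2 lower, beside 31.6% and 24.8% of all genes, with a median of 0.02. *Dnajb1*, a partner of HSP70, was at 0.82 ± 0.08 (limma adjusted p = 3.78e-05) and the small heat shock gene *Hspb1* at −0.94 ± 0.11 (adjusted p = 0.000107). Past 2-fold were *Dnajb1* after centring of the arrays (1.02) and *Hspb1* without STOSE replicate 2 (−1.01). Of 6 mitochondrial chaperones and proteases 3 were higher and 2 lower, beside the same shares of all genes. The chaperonins *Hspd1* and *Hspe1* rose by 0.68 and 0.64.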

How the data were processed

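RNA of 3 M0505 and 3 STOSE samples was read on whole-transcript mouse gene arrays from Affymetrix. The authors deposited log2 values made by robust multi-array average (RMA) in Affymetrix Expression Console, which corrects background, quantile normalizes the arrays and summarizes each probe set. Its version, the annotation release and the genome build are not given in the sources used here. The table also holds line means and linear fold changes, which were not used. All 6 value columns were matched to samples by name, and 0 were left over.

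Of 28944 probe sets 23530 carried a symbol, and the probe set of highest mean over the 6 arrays stood for each of 20405 genes. The lines were compared with limma 3.58.1 in R 4.3.3 (lmFit and eBayes, no covariate, two-sided), with Benjamini-Hochberg adjustment over all genes. A gene was past the threshold at an adjusted p under 0.05, and called where it also changed by 2-fold or more. Groups of 3 cannot give an exact permutation p under 0.1, so none is reported. On simulated data of this comparison, all 200 genes changed by 1.5 on the log2 scale among 20405 were recovered, with 0 false calls. Those changes were larger than that of any member, the calls needed 2-fold and the noise was independent between arrays. The check thus says nothing of differences as small as those of the members, or of a shift in replicate 1. An array has no read depth, and the number of arrays limits the precision. The background was the 95th percentile of 1134 olfactory receptor probe sets.

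Members and lists were chosen with earlier results of these data known, so no p was adjusted over a list and no set was tested. Of 203 list genes 202 were on the arrays by symbol or unique synonym. From each list the called genes were named, at most the 4 largest each way, or the 2 largest differences where none was called. *Ern1*, *Eif2ak3*, *Atf6*, *Nfya*, *Nfyb*, *Ube2j1*, *Cth*, *Got1*, *Mars* and *Rars* were named outside this rule, after their values were seen. Chromosomes came from RefSeq GRCm38.p6, which matched 97.5% of the genes. Promoter sequences are those of RefSeq.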

Additional observations from a re-analysis of the deposited data

How the results depend on the processing

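The counts of the 10 members at 2-fold (0 higher, 0 lower) became 4 and 2 with no fold required, and 1 and 1 at 1.5-fold. On leaving out single arrays they lay between 0 and 1 higher (1 without M0505 replicate 1, which was *Trib3*) and at 0 lower, and without both replicate 1 arrays, an alternative chosen after the data were seen, 1 was higher (*Trib3*, 1.09). At the adjusted p alone, counted after the data were seen, 2 to 5 members were higher with each array left out, and 2 with the adjusted methods' t-test. The shares of all genes in these fits are not given. Centring of each array on its median moved the median of all genes from 0.08 to 0.28 and the share of higher genes among those past the threshold from 56.0% to 77.0% (at 2-fold from 39.2% to 55.5%). The members then stood at 6 higher and 1 lower at the adjusted p, beside 12738 higher and 3804 lower among all 20405 genes. *Xbp1* was at 0.0907 and *Ddit3* at 0.00558, both turned in sign. *Ddit3* was also turned without M0505 replicate 1 (0.0466), and lay between −0.462 and 0.0466 over the single arrays left out. Of the 140 pathway genes, 10 higher and 4 lower at 2-fold became 51 and 38 with no fold required, 25 and 16 at 1.5-fold, and 15 and 2 after centring. At the adjusted p alone centring gave 78 higher and 20 lower of the 140, beside the same 12738 and 3804 of all 20405 genes. With each array left out, 8 to 11 were higher and 3 to 5 lower at 2-fold.

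With the replicate number as a block, 5 members were higher and 3 lower at the adjusted p, *Chac1* (adjusted p = 0.00486) and *Ddit3* (adjusted p = 0.0253) being added, and none at 2-fold. The share of all genes past the threshold in the block fit is not given, and the numbers are not known to pair the samples. Over all genes the deviations of same-numbered arrays had r of 0.26, 0.04 and 0.25, and STOSE replicate 2 was closer to M0505 replicate 3 (0.12). The cause of these changes was not tested.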
